A study of Homo sapiens with 24 samples.

Results

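LINC00205, CYTOR and MIR4435.2HG are 3 long intergenic non-coding RNAs (lincRNAs) that were higher after IGF2BP1 knockdown in each of 4 human cancer cell lines, and CYTOR and MIR4435.2HG are near-identical paralogs. They were selected on exactly that difference, by gene symbol in the deposited tables, where a point stands for the hyphen of MIR4435-2HG. They are 3 of 58174 genes listed and 3 of 7514 lincRNAs listed. Total RNA depleted of ribosomal RNA was sequenced from A549 (lung adenocarcinoma), ES2 (ovarian carcinoma), MV3 (amelanotic melanoma) and PANC1 (pancreatic ductal adenocarcinoma) cells. Each line gave 3 libraries from cells transfected with a control siRNA (siC) and 3 from cells that received pooled siRNAs directed at IGF2BP1 (siI1), 24 libraries in 8 groups. All cells were transfected, and RNA was harvested after 72 h in A549, ES2 and MV3 and after 96 h in PANC1. Each line was a single established culture model, so the libraries of a group sample one line and not several tumors.

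A lincRNA is transcribed from its own gene, is usually capped and spliced like an mRNA, and is not translated into a known protein. CYTOR, also called LINC00152, and MIR4435-2HG arose by duplication of one stretch of chromosome 2, and each hosts a copy of the microRNA gene for miR-4435. CYTOR has been tied to proliferation and migration of tumor cells, and MIR4435-2HG, also called MORRBID in blood cells, to the control of BCL2L11, the gene for the pro-apoptotic protein BIM. LINC00205 lies head to head with POFUT2, which encodes an enzyme that adds fucose to thrombospondin repeats of secreted proteins. IGF2BP1 is an RNA-binding protein of the embryo that many tumors make again and that shields bound mRNAs from decay.

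The start region of LINC00205 is shown first because the gene shares it with POFUT2. On hg38 the gene lies on chromosome 21 from 45288035 to 45297806 on the plus strand, and POFUT2 is read from the same place in the other direction. Capitals mark the 136 bases between the annotated starts of POFUT2 and LINC00205.
LINC00205 start region (RefSeq, GRCh38.p14, chr21:45287802-45288101, plus strand): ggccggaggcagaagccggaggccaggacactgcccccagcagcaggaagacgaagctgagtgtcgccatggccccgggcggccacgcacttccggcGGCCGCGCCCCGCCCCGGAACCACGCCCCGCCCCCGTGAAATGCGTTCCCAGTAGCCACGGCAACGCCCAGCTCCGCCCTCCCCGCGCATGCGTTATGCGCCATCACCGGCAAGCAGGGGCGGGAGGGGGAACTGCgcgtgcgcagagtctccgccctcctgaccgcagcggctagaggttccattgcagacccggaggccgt
This region had a GC content of 72.3% and 34 CpG dinucleotides, against medians of 58.7% and 14 over 35116 RefSeq promoters of the same length. It held 6 copies of GGGCGG, the GC box bound by Sp1, counted on both strands and chosen after the sequence had been seen. The windows of CYTOR and MIR4435-2HG held none, and 45.0% of the promoters held at least 1.

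The start region of CYTOR differed in composition. Capitals mark TGANTCA, the palindromic word bound by AP-1, also chosen after the sequence was seen.
CYTOR start region (RefSeq, GRCh38.p14, chr2:87455177-87455476, plus strand): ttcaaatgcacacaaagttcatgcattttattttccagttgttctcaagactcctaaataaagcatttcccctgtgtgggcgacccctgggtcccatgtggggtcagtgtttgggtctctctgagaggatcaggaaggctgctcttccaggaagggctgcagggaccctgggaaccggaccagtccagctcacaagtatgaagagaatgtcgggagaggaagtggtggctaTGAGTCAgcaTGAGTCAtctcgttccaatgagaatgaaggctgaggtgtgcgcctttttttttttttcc
It had a GC content of 49.7% and 5 CpG dinucleotides. It held 2 copies of TGANTCA, the RefSeq window of MIR4435-2HG held 1 and that of LINC00205 none, and 7.71% of all promoters held at least 1. The window of MIR4435-2HG had a GC content of 47.7% and 3 CpG dinucleotides, and it was not aligned to the window of CYTOR. A word in these windows is a description of sequence only.

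The paralogs are shown next because a read can be assigned to one of them only where they differ. CYTOR lies on chromosome 2 from 87454781 to 87636740 on the plus strand, and MIR4435-2HG on the same chromosome from 111006015 to 111523376 on the minus strand. The whole body of CYTOR with 2000 bases on each side, 185960 bases, aligned to one stretch of MIR4435-2HG, from 111312100 to 111497746, with 98.7% matching positions. Exons 1, 2 and 3 of the canonical CYTOR transcript in GENCODE are printed, and the copy of each is an annotated MIR4435-2HG exon with the same splice sites. Capitals mark the bases that differ.
CYTOR exon 1 (hg38, chr2:87455506-87455645): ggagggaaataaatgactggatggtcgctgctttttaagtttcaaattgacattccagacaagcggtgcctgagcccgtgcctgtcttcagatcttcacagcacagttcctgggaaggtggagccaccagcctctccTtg
MIR4435-2HG copy of exon 1 (hg38, chr2:111494885-111495024, minus strand): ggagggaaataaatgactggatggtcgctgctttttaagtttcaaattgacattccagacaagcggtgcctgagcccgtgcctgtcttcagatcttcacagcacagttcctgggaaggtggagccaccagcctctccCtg
CYTOR exon 2 (hg38, chr2:87470150-87470304): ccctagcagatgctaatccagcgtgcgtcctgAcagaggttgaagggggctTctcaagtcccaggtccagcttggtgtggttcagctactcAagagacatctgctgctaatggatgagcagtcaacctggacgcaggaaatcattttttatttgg
MIR4435-2HG copy of exon 2 (hg38, chr2:111479907-111480061, minus strand): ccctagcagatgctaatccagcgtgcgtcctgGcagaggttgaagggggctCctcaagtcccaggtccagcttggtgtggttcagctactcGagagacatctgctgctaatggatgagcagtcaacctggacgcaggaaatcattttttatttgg
CYTOR exon 3 (hg38, chr2:87583258-87583346), identical in MIR4435-2HG: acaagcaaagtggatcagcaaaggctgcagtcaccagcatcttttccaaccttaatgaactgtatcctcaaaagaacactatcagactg
Exon 1 differed at 1 of 140 bases, exon 2 at 3 of 155 and the last exon at 3 of 459. Exon 3, with 89 bases, and exon 4, with 177 bases, were identical in both genes.

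MIR4435-2HG extends beyond the duplicated stretch, and its unique exons are where its reads cannot be confused with those of CYTOR. The last exon of its canonical transcript is one of them, at 114 edits from the closest stretch of the CYTOR body.
MIR4435-2HG last exon (hg38, chr2:111006015-111006273, minus strand): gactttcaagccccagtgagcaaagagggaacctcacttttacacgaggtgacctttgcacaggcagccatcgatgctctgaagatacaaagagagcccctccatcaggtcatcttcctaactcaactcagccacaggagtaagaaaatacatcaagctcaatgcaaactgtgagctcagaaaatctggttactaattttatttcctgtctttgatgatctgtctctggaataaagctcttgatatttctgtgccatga
Reads were 76 bases long and sequenced in pairs. The windows below stand for single reads, and pairs, where a mate can place a shared read, were not counted. Of all 76-base windows in the 39 annotated CYTOR transcripts, 55.0% occurred letter for letter in MIR4435-2HG, introns included. Of those in the 108 MIR4435-2HG transcripts, 35.7% occurred in CYTOR. Within the annotated transcripts of the other gene alone, the shares were 44.6% and 22.7%. For the canonical transcripts the shares were 59.6% and 38.1%. LINC00205 shared no such window with either gene. How the counting treated reads that match both paralogs is not given in the sources used here, so the split of reads between CYTOR and MIR4435.2HG is uncertain.

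Both paralogs carry the same microRNA. MIR4435-1 lies inside CYTOR and MIR4435-2 inside MIR4435-2HG, and the mature sequence is the same. Capitals mark the seed, bases 2 to 8.
hsa-miR-4435 (RefSeq, GRCh38.p14, chr2:87629764-87629785, plus strand, and chr2:111321061-111321082, minus strand): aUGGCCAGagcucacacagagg
The deposited tables list both microRNA genes, but the total RNA libraries were not made to capture small RNAs. MIR4435.1 had 0 to 23 reads per library and MIR4435.2 had 0 to 15, and the siC and siI1 libraries overlapped in every line for both. Neither microRNA gene passed the test in any line.

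Values are FPKM, fragments per kilobase of gene length as listed, relative to library size. The listed lengths were 1391 bases for LINC00205, 3456 for CYTOR and 8500 for MIR4435.2HG. The reads behind every value could be recovered. Libraries had 3105215 to 4553326 reads in A549, 6421764 to 8419467 in ES2, 6532175 to 8472851 in PANC1 and 15572492 to 20082702 in MV3, so that MV3 was sequenced most deeply. IGF2BP1 itself was lower in every siI1 library, on average 39.7 against 15.6 FPKM in A549, 13.1 against 4.14 in ES2, 11.1 against 2.78 in PANC1 and 9.26 against 2.91 in MV3. The keratins KRT8 and KRT18 were present in A549, ES2 and PANC1. NKX2.1 and SFTPB in A549 and SOX10, TYR and S100B in MV3 were listed at 0 in all libraries of their line. The blood marker PTPRC and the fibroblast marker DCN did not exceed 0.0332 FPKM in any library, and the fibroblast marker LUM reached 3.68 FPKM in A549 and at most 0.12 elsewhere.

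LINC00205 had 5.46, 4.70 and 5.08 FPKM in the siC libraries of A549 and 10.9, 12.5 and 9.74 in the siI1 libraries. In ES2 the siC libraries had 3.13, 3.73 and 3.79 FPKM and the siI1 libraries 12.9, 13.3 and 10.7. Every siI1 library lay above every siC library in both lines, and the gap was widest in ES2. In MV3 the siC libraries had 6.50, 7.57 and 7.23 FPKM and the siI1 libraries 15.9, 16.3 and 17.3. In PANC1 the siC libraries had 4.89, 4.56 and 4.62 FPKM and the siI1 libraries 7.78, 10.4 and 6.11. The groups did not overlap there either, but the siI1 libraries of PANC1 were spread from 6.11 to 10.4 FPKM. The means were 2.18-fold higher with siI1 in A549, 3.46-fold in ES2, 1.73-fold in PANC1 and 2.32-fold in MV3. On the log2(FPKM + 0.5) scale the differences were 1.05 ± 0.11 (SE, 3 + 3 libraries), 1.66 ± 0.11, 0.70 ± 0.18 and 1.16 ± 0.06 in the same order. These rest on few reads where depth was low: 26 to 31 in siC and 48 to 79 in siI1 libraries of A549, against 136 to 165 and 445 to 472 in MV3.

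CYTOR was the most abundant of the 3 per listed length in every library. In reads, MIR4435.2HG lay above CYTOR in ES2 and PANC1, with 425 to 491 against 293 to 302 in siC libraries of ES2. CYTOR had more reads in MV3, and in A549 the order differed between siC and siI1. CYTOR had 9.58, 8.58 and 9.24 FPKM in siC and 15.7, 16.4 and 17.6 FPKM in siI1 libraries of A549. In ES2 it had 13.5, 12.9 and 12.1 FPKM in siC and 23.2, 21.9 and 22.1 in siI1. These groups stood clearly apart. In MV3 it had 20.5, 21.1 and 21.0 FPKM in siC and 24.1, 23.8 and 24.3 in siI1. In PANC1 it had 7.68, 7.34 and 7.34 FPKM in siC and 16.0, 14.1 and 13.9 in siI1. The groups did not overlap in any line, and MV3 had both the highest siC levels and the smallest step. The means were 1.82-fold higher in A549, 1.74-fold in ES2, 1.97-fold in PANC1 and 1.15-fold in MV3. The log2 differences were 0.83 ± 0.07 (SE, 3 + 3 libraries), 0.78 ± 0.06, 0.93 ± 0.07 and 0.20 ± 0.03 in the same order.

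MIR4435.2HG followed the order of CYTOR only in part. It had 4.50, 3.84 and 4.21 FPKM in siC and 5.37, 6.16 and 6.61 FPKM in siI1 libraries of A549. In ES2 it had 8.04, 7.62 and 8.01 FPKM in siC and 15.6, 14.4 and 14.6 in siI1. The step was wide in ES2, while in A549 the highest siC and the lowest siI1 library were close. In MV3 it had 6.55, 6.90 and 7.62 FPKM in siC and 7.86, 8.37 and 8.16 in siI1. In PANC1 it had 6.06, 6.50 and 5.74 FPKM in siC and 10.4, 10.5 and 11.5 in siI1. The groups again did not overlap, in MV3 by a narrow margin. The means were 1.44-fold higher in A549, 1.88-fold in ES2, 1.77-fold in PANC1 and 1.16-fold in MV3. The log2 differences were 0.48 ± 0.11 (SE, 3 + 3 libraries), 0.87 ± 0.06, 0.77 ± 0.08 and 0.20 ± 0.06 in the same order.

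**Figure D1:**
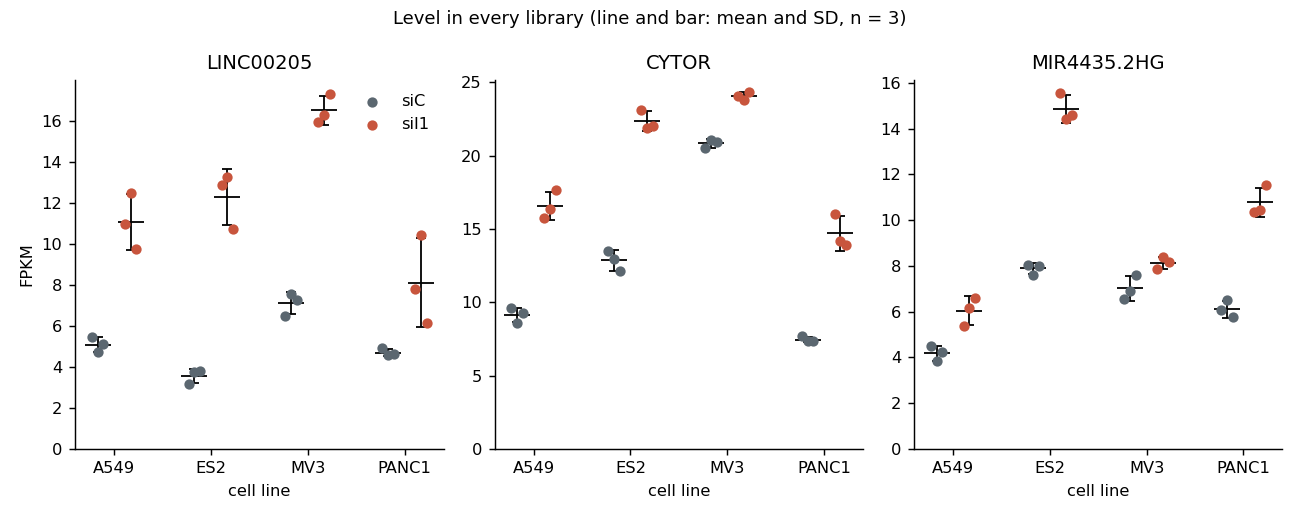
FPKM (linear axis from 0) of LINC00205, CYTOR and MIR4435.2HG in each of the 24 libraries, by cell line, with siC in grey and siI1 in red; the black line and bar give the mean and SD of 3 libraries. All siI1 points lie above the siC points of the same line, with the smallest steps for CYTOR and MIR4435.2HG in MV3, where the means were 1.15-fold and 1.16-fold higher.

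Since these differences chose the genes, they carry no test. A separation of the groups with siI1 on top was common: it held for 15.4% of genes tested in A549, 19.5% in ES2, 19.4% in PANC1 and 24.5% in MV3. Genes with an adjusted p below 0.05 in limma, Benjamini-Hochberg adjusted over all genes tested in the line, were called. The shares called higher were 5.93% in A549, 10.5% in ES2, 11.3% in PANC1 and 16.3% in MV3, and those called lower 7.83%, 13%, 13.4% and 19.5%. Of 319 lincRNAs tested in all 4 lines, 59 had a positive log2 difference in all and 3, or 0.94%, were called higher in all: the 3 described here. The largest of the 4 adjusted p in limma was 0.00227 for CYTOR (MV3), 0.0318 for LINC00205 (PANC1) and 0.0475 for MIR4435.2HG (MV3), the last just inside the rule. The lincRNAs just outside it were AC012306.2, with 0.0975 in A549, LINC01715, with 0.205 in A549, and MIR503HG, with 0.22 in PANC1 but called in the other 3 lines. Without filtering on low values, CYTOR alone met the rule. The same held without any one of the siC replicates and without siI1 replicate 1. MIR4435.2HG lost its call in both A549 and MV3, and LINC00205 in PANC1, without siC replicate 1 or 2. Other libraries mattered too: over the 24 fits of a line without 1 library, MIR4435.2HG lost its call in 10 and LINC00205 in 4.

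The absolute differences in PANC1 depended on how the libraries were scaled. RN7SL2, the RNA of the signal recognition particle, took 50.1% to 56.2% of the summed FPKM in siC and 62.0% to 64.6% in siI1 libraries of PANC1. When every library of a line was rescaled to the same sum of FPKM, the median log2 difference over all genes tested in PANC1 moved from -0.04 to -0.68. LINC00205 was then at -0.0017, CYTOR at 0.21 and MIR4435.2HG at 0.063. Relative to that median they lay 0.68, 0.89 and 0.75 above the typical gene. In ES2 this rescaling moved the median by 0.06 and in A549 and MV3 by less. Rescaling to the same sum over protein-coding genes, chosen after the data were seen, moved it by 0.13 in ES2 and 0.12 in MV3. All 3 lincRNAs kept positive differences in A549, ES2 and MV3 under each of these scalings and under median ratios. In PANC1, LINC00205 was at 0.73 under median ratios and at 0.66 with the same sum over protein-coding genes. CYTOR was at 0.96 and 0.89 there, and MIR4435.2HG was also positive under each. The directions given below for genes of PANC1 are relative to the bulk of genes in the same sense.

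**Figure D2:**
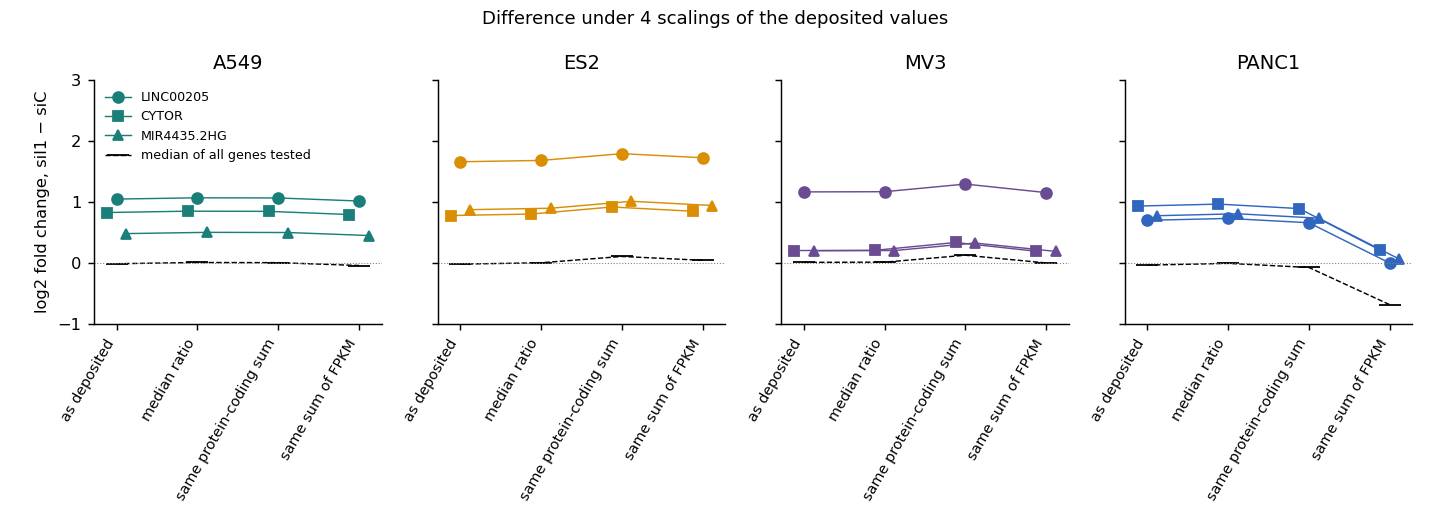
Log2 differences (siI1 minus siC) of the 3 lincRNAs, and the median over all genes tested (dashed, black), under 4 scalings of the libraries, with 1 panel per line. The lincRNAs and the median move together; with the same sum of FPKM in PANC1 the median falls to -0.68 and LINC00205 to about 0, while A549, ES2 and MV3 show little movement.

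The tables of the lines were normalized separately, so the following order of levels across lines is a description. In siC libraries LINC00205 was highest in MV3 (7.10 ± 0.55 FPKM, SD, n = 3) and lowest in ES2 (3.55 ± 0.36). A549 (5.08 ± 0.38) and PANC1 (4.69 ± 0.18) lay between them, with overlapping libraries. CYTOR ran from 20.8 ± 0.31 FPKM in MV3 over 12.9 ± 0.70 in ES2 and 9.13 ± 0.51 in A549 to 7.45 ± 0.19 in PANC1, with no overlap between neighbors in that order. MIR4435.2HG was highest in ES2 (7.89 ± 0.23 FPKM), whose lowest library practically equaled the highest of MV3 (7.02 ± 0.54). It was lower in PANC1 (6.10 ± 0.38) and lowest in A549 (4.19 ± 0.33).

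Ratios of the lincRNAs within a library do not depend on the scaling and were not used to choose them. In siC libraries CYTOR exceeded MIR4435.2HG per length in every line. The ratio was 2.13, 2.23 and 2.19 in the A549 libraries, with a geometric mean of 2.18, and 1.68, 1.70 and 1.51 in ES2, with a mean of 1.63. In MV3 it was 3.13, 3.05 and 2.75, with a mean of 2.97, and in PANC1 1.27, 1.13 and 1.28, with a mean of 1.22. The 4 lines did not overlap. An exact permutation test over all 15400 ways to deal the 12 siC libraries into 4 groups of 3, two-sided by construction, gave p = 6.49e-05, the smallest it can give, for this ratio. The same p was reached by LINC00205 over CYTOR and by LINC00205 over MIR4435.2HG, and the exact permutation p adjusted over the 3 ratios was also 6.49e-05. LINC00205 over CYTOR had a geometric mean of 0.556 in A549, 0.275 in ES2, 0.629 in PANC1 and 0.34 in MV3. LINC00205 over MIR4435.2HG had one of 1.21 in A549, 0.448 in ES2, 0.77 in PANC1 and 1.01 in MV3. By these counts the proportion of the near-identical paralogs differed between lines. The split of shared reads touches the size of this ratio, and its part in the differences between lines was not tested.

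In siI1 libraries the lines differed in CYTOR over MIR4435.2HG (exact permutation p = 0.00117, adjusted over the 3 ratios 0.00351) and in LINC00205 over MIR4435.2HG (exact permutation p = 0.00435, adjusted 0.00653). LINC00205 over CYTOR missed the threshold in these libraries (exact permutation p = 0.255). Its means there were 0.664 in A549, 0.547 in ES2, 0.539 in PANC1 and 0.685 in MV3, closer together than in siC, and the difference between siC and siI1 in this respect was not tested.

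The change of a ratio between siC and siI1 comes from the contrast behind the selection and is given without a test. LINC00205 over CYTOR was 0.99 ± 0.16 (SE) higher on the log2 scale with siI1 in ES2 and 1.01 ± 0.06 higher in MV3, and the groups did not overlap in these lines. In A549 the difference was 0.26 ± 0.14 and in PANC1 -0.22 ± 0.23, with overlapping libraries. By these values LINC00205 gained on CYTOR in ES2 and MV3. CYTOR over MIR4435.2HG was 0.33 ± 0.05 higher with siI1 in A549, without overlap, and differed by -0.11 ± 0.05 in ES2, 0.15 ± 0.12 in PANC1 and -0.01 ± 0.07 in MV3, with overlap in these 3 lines.

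**Figure D3:**
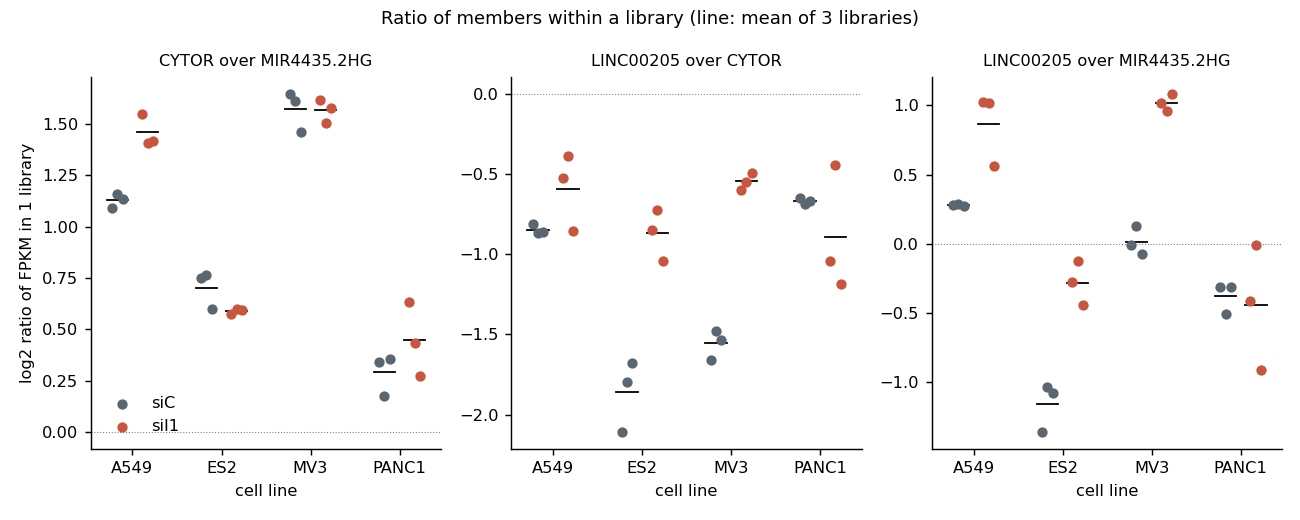
Log2 ratio of FPKM between pairs of the lincRNAs in each library, by line, with siC in grey, siI1 in red and a black line at the mean of 3 libraries. CYTOR over MIR4435.2HG is ordered MV3, A549, ES2, PANC1 in siC; LINC00205 over CYTOR lies 0.99 higher with siI1 in ES2 and 1.01 higher in MV3, and overlaps in A549 and PANC1.

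POFUT2, which starts 136 bases from LINC00205, was not called in any line. It had 3.60, 3.13 and 3.93 FPKM in siC and 3.34, 3.38 and 3.18 FPKM in siI1 libraries of A549. In ES2 it had 5.42, 4.55 and 5.13 FPKM in siC and 5.52, 5.16 and 4.87 in siI1. In MV3 it had 7.50, 7.77 and 7.70 FPKM in siC and 7.41, 7.27 and 7.71 in siI1. The siC and siI1 libraries of POFUT2 overlapped in these lines and in PANC1, where they had 7.63, 7.96 and 7.44 against 7.96, 7.43 and 8.25 FPKM. In limma the log2 differences were -0.09 ± 0.12 (SE; adjusted p = 0.692), 0.04 ± 0.09 (0.793), -0.03 ± 0.04 (0.55) and 0.04 ± 0.07 (0.745). The intervals of 2 SE ran from -0.12 to 0.05 in MV3, from -0.10 to 0.17 in PANC1, from -0.14 to 0.22 in ES2 and from -0.33 to 0.15 in A549. Each lies below the log2 difference of LINC00205 in the same line, which was 0.70 or more. That difference chose LINC00205 and has an error of its own (SE 0.18 in PANC1), so the comparison is a description and no test.

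**Figure D4:**
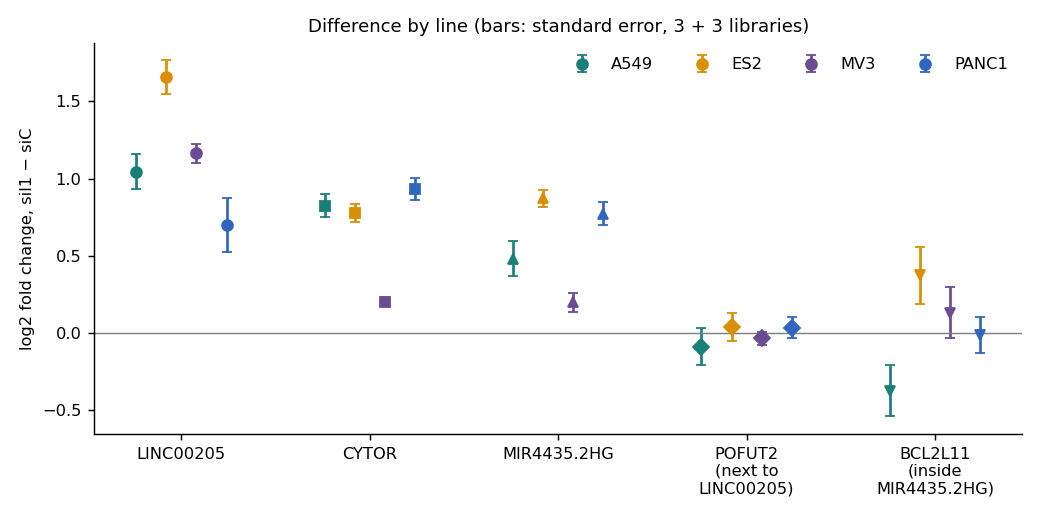
Log2 difference (siI1 minus siC on the log2(FPKM + 0.5) scale) with its standard error, by line (color), for the 3 lincRNAs, for POFUT2 next to LINC00205 and for BCL2L11 inside the body of MIR4435.2HG. The lincRNAs lie between 0.20 and 1.66, POFUT2 lies within 0.09 of 0 in each line, and BCL2L11 lies between -0.37 and 0.37.

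Genes within 1 Mb of a member were taken as its neighborhood. Around LINC00205, 95 genes of the tables were listed and 25 to 30 tested per line. Of these, 2 of 29 were called higher and 1 lower in A549, and 7 of 30 higher and 5 lower in ES2. In PANC1 5 of 25 were higher and 1 lower, and in MV3 10 of 28 were higher and 3 lower. The shares of all tested genes called higher and lower were 5.93% and 7.83% in A549 and 10.5% and 13% in ES2. They were 11.3% and 13.4% in PANC1 and 16.3% and 19.5% in MV3. PTTG1IP, which encodes a binding protein of securin, was the only neighbor of any member called higher in all 4 lines, at a distance of 414132 bases. The share of all tested genes called higher in all 4 lines is not given here, so whether this is unusual for a neighbor was not tested. The level of PTTG1IP was 63.4 ± 1.91 FPKM (SD, n = 3) in siC and 75.7 ± 3.3 in siI1 libraries of A549, and 150.0 ± 5.22 against 307 ± 5.92 in ES2. In MV3 it was 62.6 ± 3.01 against 78.6 ± 1.5 FPKM and in PANC1 89.5 ± 4.55 against 109.6 ± 4.53. The groups did not overlap. The limma log2 differences were 0.25 ± 0.05 (adjusted p = 0.0237), 1.03 ± 0.04 (9.45e-05), 0.33 ± 0.04 (0.00162) and 0.29 ± 0.06 (0.017). In PANC1 the difference turned to -0.46 with the same sum of FPKM, and it lay 0.22 to 0.33 above the median of all genes under the scalings tried.

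Other neighbors of LINC00205 were each called in 1 direction in 3 lines, but neither the direction nor the lines were the same for all. The share of all tested genes called so is not given here. COL6A1, a chain of collagen VI, rose in A549 (0.71 ± 0.11, limma adjusted p = 0.0101), ES2 (0.48 ± 0.06, 0.00261) and MV3 (0.46 ± 0.04, 0.000648) and was at -0.05 ± 0.12 in PANC1. LSS, lanosterol synthase of the cholesterol pathway, rose in ES2 (0.44), MV3 (0.31) and PANC1 (0.63) and was at -0.24 ± 0.12 in A549. YBEY, an endoribonuclease of mitochondria, rose in ES2 (0.39), MV3 (0.42) and PANC1 (0.69) and was at 0.56 ± 0.18 in A549. SLC19A1, the reduced folate carrier, fell in ES2 (-0.45), MV3 (-0.73) and PANC1 (-0.63) and was at -0.21 ± 0.14 in A549. In PANC1 LSS was at -0.10 and YBEY at 0.02 with the same sum of FPKM. The nearest tested gene on the far side of LINC00205, BX322562.1, was tested in A549 and PANC1 and did not pass in either.

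Around CYTOR, 53 genes were listed and 18 to 21 tested per line. Called higher and lower were 2 and 0 of 21 in A549 and 1 and 0 of 18 in ES2. In PANC1 they were 2 and 1 of 21, and in MV3 7 and 1 of 19. The shares of all tested genes are given above with the neighbors of LINC00205. In limma at an unadjusted p under 0.05, 2 were lower in A549 and 0 in ES2, and voom on the recovered reads gave the same counts. No neighbor of CYTOR was called in the same direction in 3 lines. Outside the body of CYTOR, the nearest tested gene on its right, toward higher coordinates, was AC133965.1, at 18150 bases, which did not pass in any line. The nearest on its left was AC083899.1, at 258152 bases, which fell in PANC1 (-0.53 ± 0.13, limma adjusted p = 0.028). The counts over genes called, named after their values were seen, include KDM3A, a histone demethylase, and KRCC1 in both A549 and MV3, and CHMP3, a subunit of the ESCRT-III complex, in both ES2 and MV3, all higher.

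Around MIR4435.2HG, 67 genes were listed and 18 to 25 tested per line. Called higher and lower were 1 and 1 of 25 in A549 and 3 and 1 of 18 in ES2. In PANC1 they were 1 and 6 of 24, and in MV3 2 and 4 of 21. BUB1, a kinase of the spindle checkpoint, was the nearest tested gene on one side and ANAPC1, a subunit of the anaphase-promoting complex, on the other. BUB1 fell in MV3 (-0.28 ± 0.04, limma adjusted p = 0.00232) and PANC1 (-0.49 ± 0.05, 0.00223), and was at -0.09 ± 0.08 in A549 and -0.23 ± 0.08 in ES2. ANAPC1 fell in MV3 (-0.22 ± 0.06) and PANC1 (-0.39 ± 0.07), and was at -0.03 ± 0.07 in A549 and -0.20 ± 0.07 in ES2. Neither moved in the direction of MIR4435.2HG. Over all 3 neighborhoods, 5 of 75 tested genes were called higher in A549, 11 of 66 in ES2, 8 of 70 in PANC1 and 19 of 68 in MV3. Called lower were 2, 6, 8 and 8 of them in the same order. The shares of all tested genes called higher were 5.93%, 10.5%, 11.3% and 16.3%, and of those called lower 7.83%, 13%, 13.4% and 19.5%. The median log2 difference of the neighbors was -0.03, 0.13, -0.02 and 0.13 in the same order, against -0.01, -0.02, -0.04 and 0.01 over all genes tested.

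**Figure D5:**
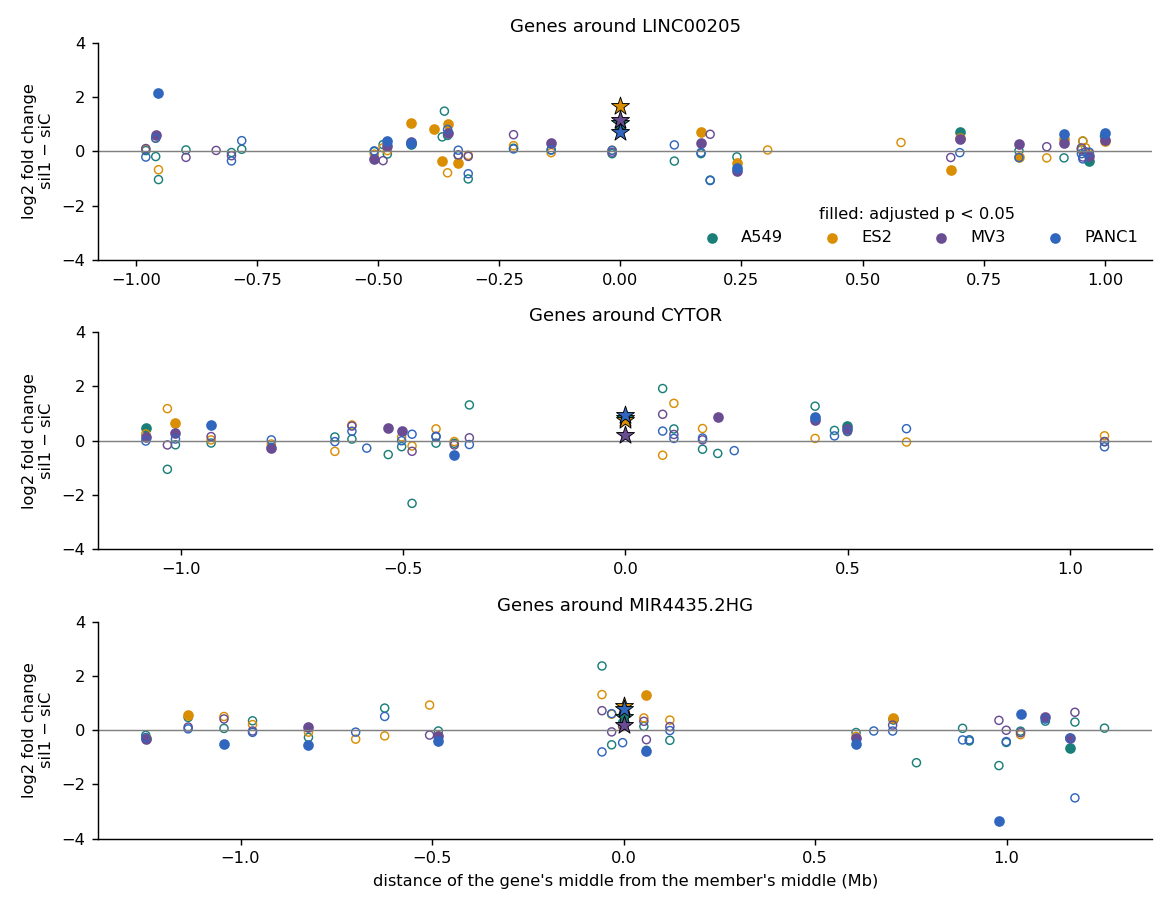
Log2 difference (siI1 minus siC) of tested genes within 1 Mb of LINC00205, CYTOR and MIR4435.2HG against the distance between gene middles, by line (color), filled where the adjusted p was below 0.05; stars mark the lincRNA itself. Most neighbors lie near 0 and unfilled points prevail, with 5 of 75 neighbors called higher in A549 and 19 of 68 in MV3.

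BCL2L11 lies inside the body of MIR4435.2HG on the opposite strand. It did not pass the test in any line. Its siI1 libraries lay below the siC libraries in A549 and above them in ES2, and the groups overlapped in MV3 and PANC1. The log2 difference was -0.37 ± 0.17 in A549 (limma adjusted p = 0.209), 0.37 ± 0.18 in ES2 (0.199), -0.01 ± 0.11 in PANC1 (0.947) and 0.13 ± 0.17 in MV3 (0.582). Apart from the microRNA gene MIR4435.2, described above, the other tested genes inside MIR4435.2HG lie on its own strand and outside the duplicated stretch, so unspliced reads of it could be counted there. AC108463.1, a processed pseudogene, was higher in ES2 (1.31 ± 0.35, limma adjusted p = 0.0425, 4 to 13 reads in siC and 24 to 27 in siI1) and lower in PANC1 (-0.78 ± 0.21, 0.0386, 5 to 7 reads in siC and 2 to 3 in siI1). The lincRNAs AC108463.3 and AC068491.3 and the pseudogene RPS14P4 did not pass in any line where they were tested.

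Genes that earlier work ties to CYTOR or MIR4435-2HG, 10 in all, are BCL2L11, the histone methyltransferase EZH2, the adhesion molecule EPCAM, the growth factor receptor EGFR, beta-catenin (CTNNB1), nucleolin (NCL), the splicing regulator KHDRBS1, the kinases MTOR and AKT1, and cyclin D1 (CCND1). In A549, 1 of 10 tested was called higher (EGFR) and 1 lower (CCND1). In ES2, 2 of 9 were higher (EGFR and MTOR) and 2 lower (NCL and KHDRBS1). In MV3, 1 of 9 was higher (AKT1) and 3 lower (EZH2, NCL and CCND1). In PANC1, 1 of 10 was higher (CCND1) and 3 lower (EPCAM, EZH2 and KHDRBS1). Of all tested genes, 5.93% were higher and 7.83% lower in A549, 10.5% and 13% in ES2, 16.3% and 19.5% in MV3, and 11.3% and 13.4% in PANC1. The median log2 differences of the list were -0.11, 0.01, -0.0064 and -0.07 in these lines, against -0.01, -0.02, 0.0098 and -0.04 over all genes tested. CCND1 passed in 3 lines, down in A549 (-0.32 ± 0.06, limma adjusted p = 0.0213) and MV3 (-0.31 ± 0.03, 0.00101) and up in PANC1 (0.35 ± 0.07, 0.0161), and was at -0.39 in PANC1 with the same sum of FPKM. EZH2 was lower in siI1 than in siC libraries of all 4 lines without overlap. The share of all tested genes separated in this direction was not counted. EZH2 passed in MV3 (-0.39 ± 0.09, limma adjusted p = 0.0161) and PANC1 (-0.57 ± 0.10, 0.0101). It missed the threshold in A549 (-0.39 ± 0.10, limma adjusted p = 0.0585) and ES2 (-0.31 ± 0.10, 0.0645).

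The genes whose values followed each lincRNA most closely were found by the correlation of log2(FPKM + 0.5), centered on each line, over 24 libraries and 12815 other genes tested in all lines. All points share the siC and siI1 contrast, so the correlations are descriptions. For LINC00205 they were MAP3K14, the kinase of non-canonical NF-kB signaling (r = 0.966), the transcription factor STAT3 (0.965), the lipid phosphatase PLPP3 (0.955), ARL6IP5 (0.954) and the non-coding LINC00963 (0.952). Each of these genes was called higher in all 4 lines. The share of all tested genes called higher in all 4 lines is not given here. For MAP3K14 the log2 differences were 0.72 in A549, 1.13 in ES2, 0.38 in PANC1 and 0.63 in MV3. For CYTOR they were the sheddase ADAM17 (0.951), TMEM64 (0.95), MIR4435.2HG (0.948), the ribosomal protein gene RPS24 (0.941) and the opsin OPN3 (0.937). For MIR4435.2HG, CYTOR came first (0.948), before the kinase NEK6 (0.947), the sterol enzyme MSMO1 (0.942), OPN3 (0.933) and NAGK (0.932). Of the genes named for CYTOR and MIR4435.2HG, RPS24 was not called in MV3 (-0.02, limma adjusted p = 0.751). NAGK was not called in A549 (0.14, limma adjusted p = 0.394) or MV3 (0.10, 0.229). The others were called higher in all 4 lines.

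Within groups the lincRNAs varied little together. After centering on each of the 8 groups, which removes the siC and siI1 difference, CYTOR and MIR4435.2HG correlated at r = 0.35 over the 24 libraries, and 11.5% of the 12815 genes had a higher value with CYTOR. LINC00205 was at -0.02 with CYTOR and -0.12 with MIR4435.2HG.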

How the data were processed

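Before deposit, reads were trimmed of adapters (cutadapt 1.14), mapped to hg38 (HISAT2 2.1.0) and counted per gene (featureCounts 1.5.3) by the authors. The study's methods describe a stranded library kit; the strand setting of the counting is not given in the sources used here. The authors deposited 1 table per line. The values per library are FPKM, scaled with edgeR's TMM factors by the authors, which was worked out from the values: 100% of them were whole multiples of 1 read (within 0.01 reads). The authors' deposited comparison holds a log2 fold change, a p-value and an FDR per gene; none was used here. Libraries were assigned to groups from their own titles, and the study's methods call the 3 libraries of a group biological replicates without saying how the cultures were separated, so that p-values measure the spread between these libraries.

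FPKM were transformed to log2(FPKM + 0.5), which understates changes of low genes. Genes averaging 0.5 FPKM or more over the libraries of a line entered its test with limma 3.58.1 in R 4.3.3 (trend, two-sided), with Benjamini-Hochberg adjustment and a threshold of 0.05. A script was tested on simulated data. The members and lists were chosen with earlier results of these data known. Named are the members, IGF2BP1, the nearest tested neighbors, neighbors called in the same direction in 3 lines or more, partners called in 3 lines or more, 5 correlated genes per member and 3 lincRNAs outside the rule; others were named after their values were seen. Gene positions are from GENCODE release 44, matched by Ensembl identifier. The exon models behind the listed lengths were not rebuilt. The paralogs were aligned with minimap2 2.31 and edlib 1.3.9. Alternatives were other pseudocounts, filters and scalings, limma voom on the recovered reads, 1 fit of all 24 libraries, a replicate block and leaving out each library. Scaling by protein-coding genes was chosen after the data were seen. Tables and plots were made in Python 3.11.15 with numpy 2.4.6, pandas 2.3.3 and matplotlib 3.10.9.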

Additional observations from a re-analysis of the deposited data

Results flagged for a closer look

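Some genes around or linked to the lincRNAs moved one way in every siI1 library of one line and the opposite way in every siI1 library of another. These differences between lines were not tested. Separation with siI1 on top was common among all tested genes: 15.4% in A549, 19.5% in ES2, 19.4% in PANC1 and 24.5% in MV3. The share with siI1 below, or with opposite orders in different lines, was not counted. On the log2 scale (siI1 minus siC), BCL2L11 was at -0.37 in A549 and 0.37 in ES2. NCL was at 0.14 in A549, -0.38 in ES2, -0.17 in PANC1 and -0.45 in MV3. CCND1 was at -0.32 in A549, -0.31 in MV3 and 0.35 in PANC1. AKT1 was at -0.09 in ES2 and 0.13 in MV3. The pseudogene AC108463.1 inside MIR4435.2HG was at 1.31 in ES2 and -0.78 in PANC1, on at most 27 reads per library. LSS was at -0.24 in A549, 0.44 in ES2, 0.63 in PANC1 and 0.31 in MV3. With the same sum of FPKM, CCND1 was at -0.39 and LSS at -0.10 in PANC1. In limma BCL2L11 passed in neither line, NCL did not pass in A549 or PANC1, AKT1 not in ES2 and LSS not in A549. Groups of 3 are too small for a check of single outlying libraries.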

How the results depend on the processing

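Every alternative kept the members' differences positive, except 1. With the same sum of FPKM, LINC00205 was at -0.0017 in PANC1 (adjusted p = 0.995), and the calls of CYTOR (0.21, adjusted p = 0.339) and MIR4435.2HG (0.063, 0.764) in PANC1 and of CYTOR (0.19, 0.0562) and MIR4435.2HG (0.19, 0.152) in MV3 were lost in limma. This scaling moved the median of all genes, as the report gives. It left 96 genes higher and 8870 lower in PANC1 (1796 and 2131 as reported), 1419 lower in ES2, 3 neighbors higher in A549, 2 lower in ES2, 1 higher and 33 lower in PANC1, and 0 lincRNAs higher in all lines by limma, also 0 at an unadjusted p under 0.05, against 3 by voom. With no filter, LINC00205 in PANC1 (0.70) and MIR4435.2HG in A549 (0.48) and MV3 (0.20) missed the threshold over more genes tested, 1 lincRNA was higher in all lines, and neighbors called were 3 higher and 1 lower in A549, 2 lower in ES2 and 5 lower in PANC1.

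Same-numbered libraries did not deviate together: over 12 pairs r lay between -0.06 and 0.07, and 3 libraries correlated best with their own number. With the number as a replicate block, the values stayed at 0.70 for LINC00205 in PANC1 (adjusted p = 0.0524), 0.48 for MIR4435.2HG in A549 (0.117) and 0.20 in MV3 (0.0639), which lost their calls, and 1 lincRNA was higher in all lines. The block gave 379 genes higher and 622 lower in A549 and 1169 and 1443 in ES2. Neighbors under the block were 0 higher and 1 lower in A549 by limma, with 11 higher at an unadjusted p under 0.05 and 7 by voom without it, 1 lower in ES2, 12 higher in MV3 and 5 lower in PANC1.

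With all 24 libraries in 1 fit, 1831 genes were higher and 2355 lower in A549 and 1337 higher in MV3, with 8 neighbors higher and 7 lower in A549 and 11 higher in MV3. Voom on recovered reads gave 1837 higher and 2339 lower in A549 and 17 neighbors higher in ES2. The same sum over protein-coding genes, added after the data were seen, gave 2924 higher and 1295 lower in ES2 and 4409 and 1894 in MV3, with 20 neighbors higher and 1 lower in ES2 and 4 lower in MV3. The cause of these shifts was not tested. LINC00205 over CYTOR gave an exact permutation p of 0.255 in siI1 libraries.

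Leaving out each library in turn gave 0.51 to 0.87 for LINC00205 in PANC1, 0.42 to 0.56 for MIR4435.2HG in A549 and 0.15 to 0.26 in MV3, with calls lost without 4, 5 and 5 of the 6 libraries. Genes called ranged from 526 to 761 higher and 796 to 1036 lower in A549, from 1141 to 1423 higher in ES2, and from 1041 to 1888 higher and 1237 to 1954 lower in PANC1. Neighbors ranged from 1 to 4 higher and 1 to 2 lower in A549, 1 to 4 lower in ES2, 11 to 17 higher in MV3, and 3 to 7 higher and 5 to 6 lower in PANC1. Between 1 and 2 lincRNAs were higher in all lines. CYTOR kept its call in every line without any one library. Few reads limit LINC00205 in A549, with 26 to 79 per library.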
